A study of Rattus norvegicus with 20 samples.

Results

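The miR-125 and miR-99/100 families were followed in rat soleus muscle and lumbar dorsal root ganglia (DRGs) after sciatic nerve injury. Members were chosen by name: the rows for miR-99a, miR-99b and miR-100 and every row whose name starts with miR-125a or miR-125b. This gave 8 of the 348 rat miRNAs that carried 1 name in every file, namely miR-99a, miR-99b, miR-100, miR-125a-5p, miR-125a-3p, miR-125b-5p, miR-125b* and miR-125b-3p. Adult male Sprague-Dawley rats had a sham operation, a sciatic denervation of 6 months, a sciatic entrapment of 6 months, or an entrapment of 6 months followed by a decompression of 3 months. In denervation the nerve was cut, a segment was removed and the proximal stump was ligated and buried in muscle, and in entrapment a loose silastic tube was placed around the nerve, which decompression took away. No group carried a transgene or a drug. Each injury group had 3 arrays per tissue and sham had 1 array per tissue, 20 arrays in all. The Methods give 3 rats per group for the arrays, as many as each injury group had arrays, and how the 3 sham rats relate to the single sham array of a tissue is not given in the sources used here. The labels do not tie arrays to rats, so p-values measured only the spread between these samples.

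A miRNA is a short RNA cut from a hairpin precursor, and its bases 2 to 8, the seed, pair with messenger RNAs whose translation or stability is then lowered. miRNAs with the same seed form a family with overlapping targets. In mammals the miR-99/100 and miR-125 genes lie in clusters together with a let-7 gene, and miR-125b is abundant in nervous tissue and known from studies of myogenesis and of cell differentiation. One arm of each hairpin usually accumulates as the main strand, and the other arm, named with 3p or an asterisk, is usually scarcer.

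Mature sequences were available in RefSeq for 5 of the 8 members (build GRCr8), and those of the main strands are shown because the families are defined by them. Capitals mark the seed, bases 2 to 8 from the 5′ end.
miR-125a-5p: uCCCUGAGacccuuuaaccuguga
miR-125b-5p: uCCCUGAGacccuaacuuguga
miR-99b: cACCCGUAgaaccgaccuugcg
miR-100: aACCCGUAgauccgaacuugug
miR-125a-5p and miR-125b-5p shared the seed CCCUGAG and their first 13 bases. miR-99b and miR-100 shared the seed ACCCGUA and were identical at 18 of 22 positions. The 5p arms of the 2 families thus have different seeds. RefSeq named 1 further rat miRNA with the miR-125 seed, miR-351, and it was detected on none of the 20 arrays. No further mature sequence available had the seed of miR-100. That of miR-99a was not available, so its seed was not compared here.

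The other strand of the miR-125a hairpin is shown because the array measures it apart from its partner.
miR-125a-3p: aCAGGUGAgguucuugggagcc
Its seed, CAGGUGA, differed from that of miR-125a-5p. In the precursor, at chr1:67350675-67350759 on the plus strand of GRCr8, both arms lie within 85 bases and are marked by capitals.
Mir125a precursor: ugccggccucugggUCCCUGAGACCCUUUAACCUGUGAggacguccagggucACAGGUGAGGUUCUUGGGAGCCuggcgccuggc
The array lists both miR-125b* and miR-125b-3p. RefSeq lists a 3p arm for each of the 2 miR-125b genes, and the sources used here do not pair these with the array's names, so neither is printed. Strand-specific probe sequences were not used here either, and a probe may bind a close relative.

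The main-strand genes lie in 3 clusters, all on the plus strand of GRCr8. miR-99b, let-7e and miR-125a lie within 696 bases at chr1:67350064-67350759. miR-100, let-7a-2 and miR-125b-1 span 51.8 kb at chr8:50798295-50850122. miR-99a, let-7c-1 and miR-125b-2 span 45.3 kb at chr11:29687392-29732648. The mature miR-125b-5p comes from 2 of these loci, and the array cannot tell them apart.

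Signals were the total gene signals of single-colour Agilent arrays, in arbitrary units, after scaling each array to its 75th percentile within the tissue. Detection was Agilent's own call. Between 134 and 194 of the 348 miRNAs were detected per soleus array and between 183 and 233 per DRG array. In soleus 4 of the 5 muscle miRNAs (miR-1, miR-133a, miR-133b and miR-206) were detected in every group, the fifth, miR-499, was detected in each injury group but not on the sham array, and the 5 neuronal miRNAs on the list summed to at most 40.6, and in the DRGs all 5 neuronal miRNAs were detected and summed to 3136 to 3829. In each tissue the sham and denervation arrays differed from the entrapment and decompression arrays in background: the median signal of the 82 miRNAs detected on no array was −1.57 to −1.19 against −7.29 to −3.92 in soleus and −2.24 to −1.44 against −6.35 to −4.00 in the DRGs. Surgery and array handling cannot be told apart between these sets. In the authors' processed table the 6 DRG columns named for entrapment and decompression matched the scanner files of the other group, so which of these 2 DRG groups is which is uncertain. The groups below follow the scanner files.

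The 5 main strands were detected on all 20 arrays. miR-125a-3p was detected on 5 soleus and 5 DRG arrays, miR-125b* on 4 and 8, and miR-125b-3p on none. The first 7 passed the filter of detection on at least 3 of the 10 arrays in each tissue and were tested. Levels of different probes are not comparable in amount, so each miRNA is followed only across groups.

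**Figure D1:**
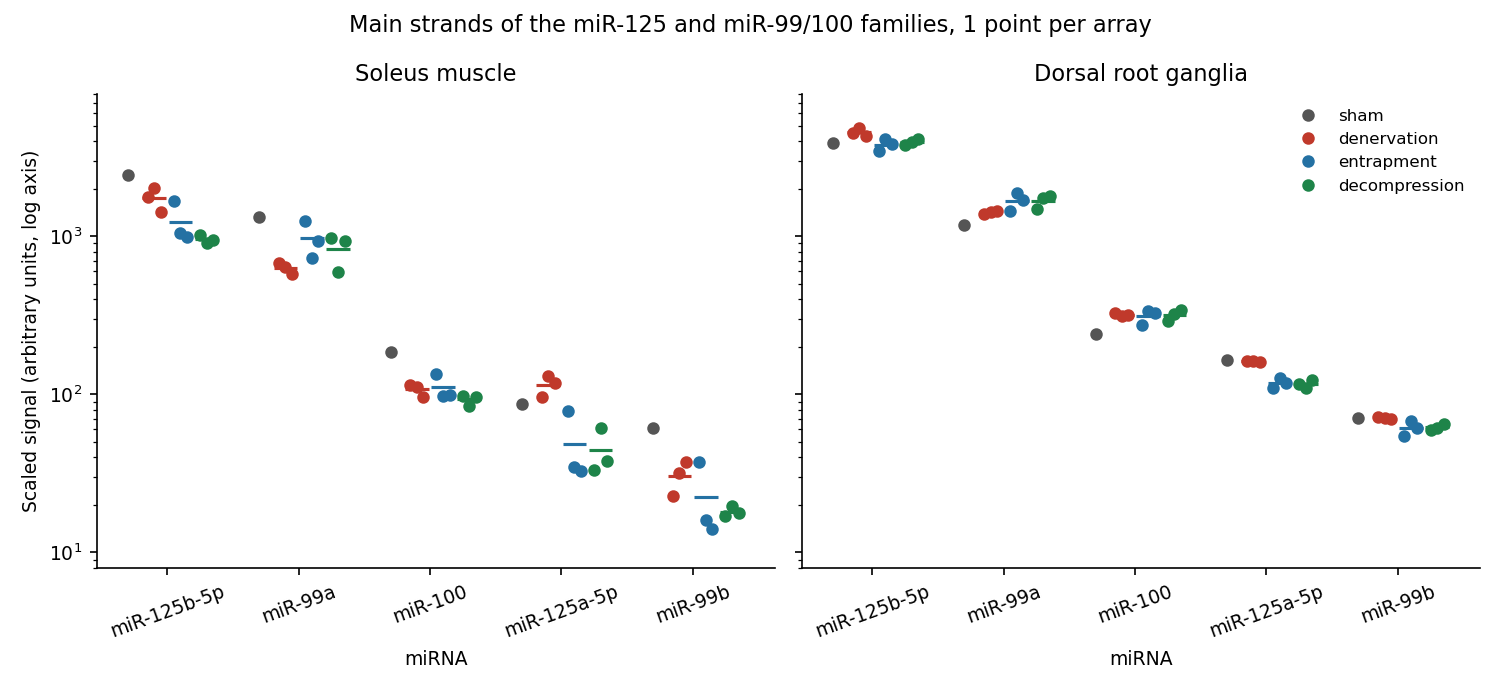
Scaled signal of the 5 main strands (arbitrary units, log axis) on each soleus array (left) and each DRG array (right), with 1 point per array, colours for the 4 groups and a horizontal line at the mean of each group of 3. In soleus the sham array lies highest for all but miR-125a-5p, and in the DRGs miR-125a-5p lies lower in all 6 entrapment and decompression arrays than in the sham and denervation arrays.

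The first question was how the members differ between muscle and ganglia. All 5 main strands were lower in soleus than in the DRGs, with arrays scaled together over the 102 miRNAs detected on all 20. miR-125b-5p ranged from 736 to 2082 (median 1010.3) on the soleus arrays and from 4313 to 5677 (median 4647) on the DRG arrays. miR-125a-5p ranged from 26.7 to 108 (median 56.4) in soleus and from 127 to 189 (median 145) in the DRGs. Neither miRNA overlapped between tissues, but the share of all miRNAs without such overlap was not counted.

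The miR-99/100 family showed the same order. miR-100 ranged from 68.4 to 157 (median 80.5) in soleus and from 267 to 403 (median 364) in the DRGs. miR-99a ranged from 477 to 1114 (median 665) in soleus and from 1317 to 2132 (median 1838) in the DRGs. miR-99b ranged from 11.4 to 52.1 (median 17.6) in soleus and from 68.7 to 83.2 (median 75.6) in the DRGs. Again no soleus array reached the lowest DRG array, which was not counted over all miRNAs either.

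In limma's fit over all 20 arrays the log2 difference of soleus minus DRGs was −1.92 ± 0.11 (SE) for miR-125b-5p, −1.79 ± 0.09 for miR-100, −1.68 ± 0.17 for miR-99b, −1.55 ± 0.17 for miR-125a-5p and −1.20 ± 0.13 for miR-99a. All 5 passed an adjusted p of 0.05, and 62.4% of the 234 miRNAs tested were called lower in soleus, with a median difference of −1.04 over all of them. A lower level in soleus was therefore common on these arrays under this scaling. The sign held for all 5 under every alternative, whereas 3 of 5 were called with the authors' processed values, where miR-99a (−0.84, adjusted p = 0.264) and miR-125a-5p (−1.19, adjusted p = 0.0513) were not. With the percentile taken over all 348 miRNAs the difference of miR-99a shrank to −0.40. In a bulk sample, fewer cells of a type and less of a miRNA per cell cannot be told apart.

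For the other strands no tissue difference was called. miR-125a-3p differed by 0.30 (95% interval −0.51 to 1.10, adjusted p = 0.469) and miR-125b* by −0.00 (−0.49 to 0.48, adjusted p = 0.994). Both depended on the scaling: with quantile scaling they were called higher in soleus, by 2.11 and 2.15, and miR-125a-3p was called higher also with the percentile over all 348 miRNAs. The tissue difference in the ratio of the strands was tested by an exact permutation of tissue labels within surgery groups, two-sided. This ratio carries the main strand's own tissue difference, −1.55 for miR-125a-5p and −1.92 for miR-125b-5p. A change of strand balance was therefore not tested apart from it. The log2 ratio of miR-125a-5p to miR-125a-3p was lower in soleus by −1.85 (exact p = 0.00163, adjusted p = 0.0114 over 14 strand tests), and that of miR-125b-5p to miR-125b* by −1.92 (exact p = 0.000125, the smallest the 16000 arrangements allow, adjusted p = 0.00175). Signals below the floor were set to it, so the ratio has a ceiling on arrays whose other strand lay under the floor. The other strand was not detected on 5 soleus and 5 DRG arrays for miR-125a-3p and on 6 and 2 for miR-125b*. Undetected signals were not all under the floor, and some detected miR-125b* signals were.

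The next question was how the main strands differed between the surgery groups in the DRGs. Under the main scaling, miR-125a-5p was the only main strand called against both sham and denervation. It was lower after entrapment and after decompression than after sham or denervation. Its scaled signal was 165 in sham, 163, 162 and 159 in denervation, 109, 127 and 118 in entrapment and 116, 110.3 and 123 in decompression. The sham and denervation arrays lay close together, the 6 remaining arrays all lay below them, and entrapment and decompression overlapped.

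By limma, miR-125a-5p differed from sham by −0.49 after entrapment (SE 0.11, 1.41-fold lower, adjusted p = 0.0158) and by −0.51 after decompression (SE 0.11, 1.42-fold lower, adjusted p = 0.0146). It differed from denervation by −0.46 (SE 0.08, adjusted p = 0.00214) and −0.47 (SE 0.08, adjusted p = 0.00181). Denervation differed from sham by −0.03 (95% interval −0.29 to 0.22, adjusted p = 0.904). Decompression minus entrapment was −0.01 (−0.20 to 0.17, adjusted p = 1).

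miR-125a-5p was called in both contrasts with denervation under each of the 21 alternatives, with values from −0.90 to −0.32 for entrapment and −0.90 to −0.43 for decompression. The contrasts with sham were called under all alternatives except a fit on the injury group and the sham array alone (adjusted p = 0.142 for entrapment and 0.0661 for decompression). After subtracting each array's own background the values against denervation were −0.47 and −0.48.

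The other main-strand member of the family, miR-125b-5p, moved less. Its scaled signal in the DRGs was 3874 in sham, 4486, 4858 and 4284 in denervation, 3466, 4109 and 3824 in entrapment and 3751, 3945 and 4130.4 in decompression. The 3 denervation arrays lay above all others, and sham lay within the range of entrapment and of decompression. Entrapment minus denervation was −0.26 (SE 0.09, adjusted p = 0.0472), a call that was lost without any 1 of 8 of the 9 injury arrays (adjusted p 0.0559 to 0.129). Decompression minus denervation was −0.20 (adjusted p = 0.111), and no contrast with sham was called.

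The miR-99/100 main strands in the DRGs were not called in any contrast. miR-99b, encoded next to miR-125a, was 70.8 in sham, 71.6, 71.2 and 69.4 in denervation, 54.3, 67.6 and 61.5 in entrapment and 59.2, 61.2 and 65.1 in decompression. As for miR-125a-5p, all 6 entrapment and decompression arrays lay below the others, but the differences from denervation were −0.22 (95% interval −0.42 to −0.01, adjusted p = 0.0935) and −0.19 (−0.40 to 0.01, adjusted p = 0.130).

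miR-99a and miR-100 lay above sham in the DRGs on every injury array. miR-99a was 1183 in sham, 1391, 1427 and 1452 in denervation, 1444, 1882 and 1686 in entrapment and 1477, 1752 and 1789 in decompression, and its differences from sham after entrapment and decompression were both 0.49 (adjusted p 0.0635 and 0.0645). miR-100 was 239.8 in sham, 328, 311 and 318 in denervation, 274, 335 and 328 in entrapment and 290.4, 323 and 341 in decompression, with differences from sham of 0.41, 0.37 and 0.40 (adjusted p 0.195, 0.0926 and 0.0774). With the percentile taken over the miRNAs detected on all DRG arrays, both were called higher than sham after entrapment (0.47 for miR-99a and 0.35 for miR-100) and after decompression (0.44 and 0.35). These differences rest on the 1 sham array.

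Of the 7 members tested in the DRGs, limma called 0 in denervation minus sham, where it called 0.457% of all miRNAs higher and 0% lower. It called 3 lower in entrapment minus sham (17.4% of all lower, 2.28% higher), 3 lower in decompression minus sham (16.4% and 1.83%), 4 lower in entrapment minus denervation (32.9% and 8.22%) and 3 lower in decompression minus denervation (27.9% and 8.68%). No member was called higher, and 0 miRNAs of any kind were called in decompression minus entrapment. The median difference in entrapment minus denervation was −0.26 over the members and −0.15 over all 219 miRNAs tested.

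The remaining DRG calls were the other strands. miR-125a-3p was 24.7 in sham, 14.2, 13.9 and 16.7 in denervation, 3.03, 1.81 and 3.01 in entrapment and 5.52, 2.57 and 10.7 in decompression. It was detected on the sham array and on all 3 denervation arrays, on no entrapment array and on 1 decompression array. Entrapment was called lower than sham and than denervation (adjusted p 0.00760 and 0.00265). A fold was also taken with each entrapment signal set to the highest of the 2.28 floor, the array's lowest detected signal and its own value. With no background subtracted, it was 8.75 against sham and 5.27 against denervation, and these folds are no bound once background is subtracted. Decompression minus sham was −2.21 (SE 0.62, adjusted p = 0.0407) and decompression minus denervation −1.48 (SE 0.44, adjusted p = 0.0302), and both calls were lost without any 1 denervation array or without decompression replicate 1. The first was lost also without entrapment replicate 1 or 3 (adjusted p 0.0510 to 0.0663 and 0.0660 to 0.0868).

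miR-125b* in the DRGs was 9.86 in sham, 9.01, 9.95 and 8.59 in denervation, 0.943, 1.75 and 2.22 in entrapment and 3.10, 1.80 and 2.34 in decompression. It was detected on the sham array, all 3 denervation arrays, 1 entrapment array and all 3 decompression arrays. Sham lay within the range of denervation, and no entrapment or decompression array reached them. All 3 entrapment signals and that of decompression replicate 2 lay under the 2.28 floor and were raised to it. limma called miR-125b* lower in both groups against denervation and against sham, but the size, the spread and the p-value of these differences depend on the floor and are not given.

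These weak signals moved together with the background of the array sets. With each array's median signal of never-detected miRNAs subtracted, an alternative chosen after seeing the data, the DRG differences of miR-125b* from denervation were −0.48 and −0.54 (adjusted p 0.00537 and 0.00279), and those of miR-125a-3p to −0.93 (adjusted p = 0.0187) and −0.64 (adjusted p = 0.0715). With 8 units added to every signal in place of the floor, those of miR-125b* were −0.84 and −0.72. miR-125b-3p, which was detected nowhere, showed the same split in its signals as deposited: −3.31 to −2.16 on the sham and denervation arrays and −7.90 to −5.54 on the entrapment and decompression arrays. The part of background in the changes of the other strands was not otherwise tested.

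**Figure D2:**
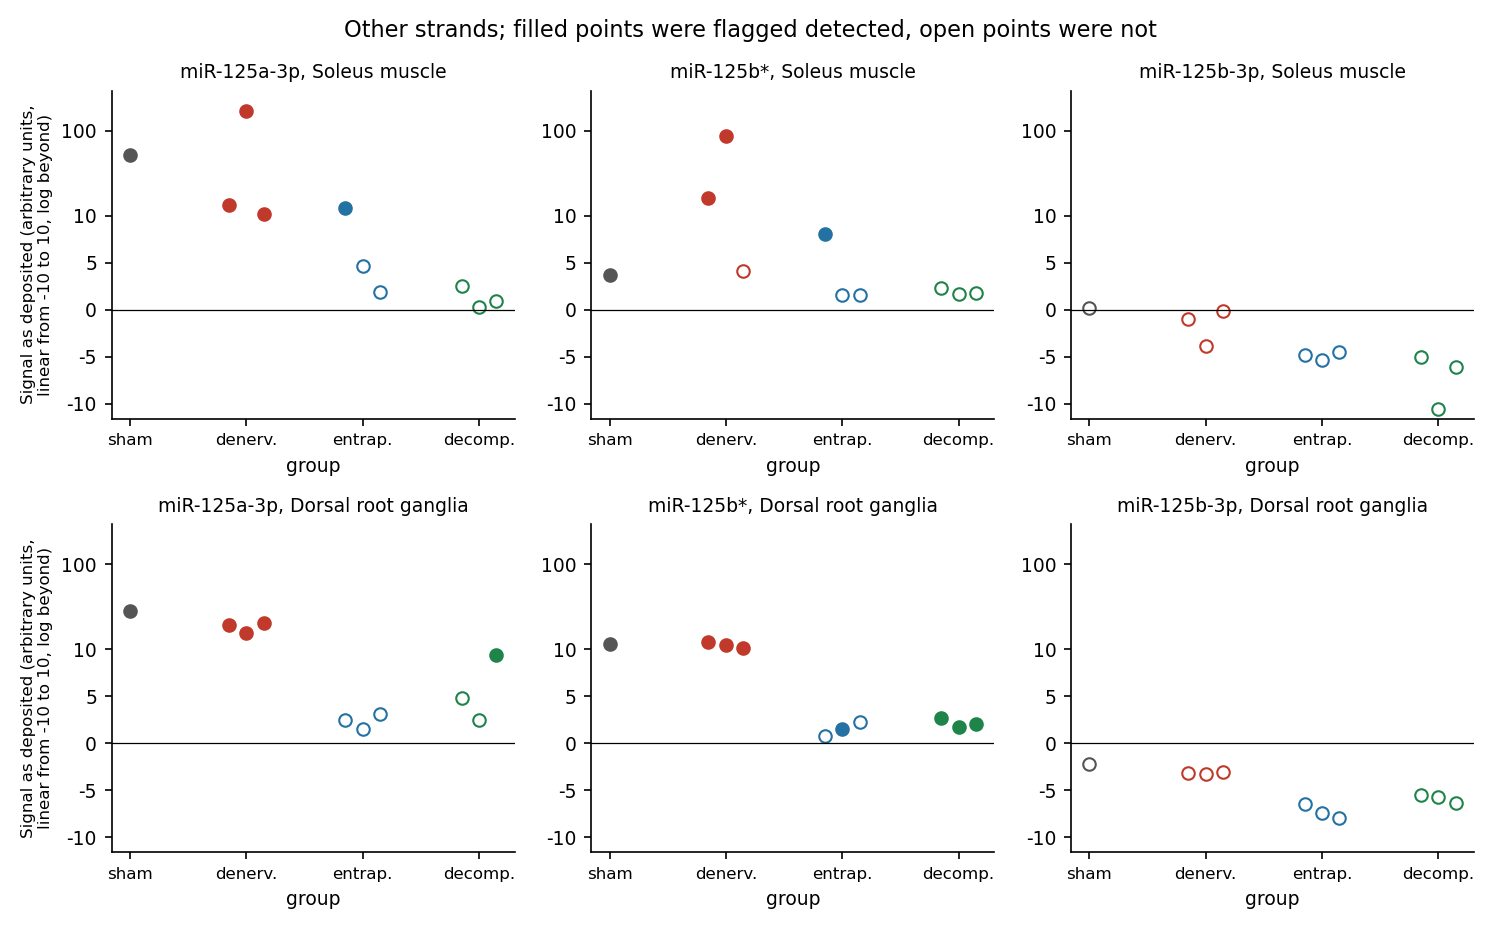
Signals as deposited (arbitrary units, linear from −10 to 10 and log beyond) of miR-125a-3p, miR-125b* and miR-125b-3p on each array, by group, in soleus (top) and DRGs (bottom). Filled points were flagged detected and open points were not. In the DRGs the first 2 miRNAs lie lower on every entrapment and decompression array than on the sham and denervation arrays, in soleus these sets overlap before scaling, and miR-125b-3p, detected on no array, lies between −3.87 and 0.14 on the sham and denervation arrays of soleus and between −11.6 and −4.52 on its entrapment and decompression arrays.

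In soleus the question was the same, with wider spread between arrays. miR-125b-5p was highest on the sham array and lowest after decompression. Its scaled signal was 2457 in sham, 1762, 2028 and 1430.1 in denervation, 1669, 1045 and 993 in entrapment and 1012, 911 and 944 in decompression. Decompression did not overlap sham or denervation, and it overlapped entrapment. Decompression minus sham was −1.36 (SE 0.39, 2.57-fold lower, adjusted p = 0.0273, and 0.0560 or 0.0588 without decompression replicate 1 or 3), entrapment minus sham −1.03 (adjusted p = 0.0824) and denervation minus sham −0.51 (adjusted p = 0.370).

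miR-125a-5p in soleus had a different order. It was 86.3 in sham, 95.8, 130.4 and 118 in denervation, 78.3, 34.7 and 32.8 in entrapment and 33.2, 61.4 and 38.0 in decompression. All 3 denervation arrays lay above sham and all 6 entrapment and decompression arrays below it. Decompression minus denervation was −1.42 (SE 0.39, 2.67-fold lower, adjusted p = 0.0413), a call lost without any 1 of 7 of the 9 injury arrays (adjusted p 0.0527 to 0.154). Entrapment minus denervation was −1.35 (SE 0.39, adjusted p = 0.0542), and it was −1.75 with an adjusted p of 0.0167 without entrapment replicate 1, whose value of 78.3 was far above the other 2, and was called also without decompression replicate 2 (adjusted p = 0.0465).

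miR-99b in soleus fell from 61.4 in sham to 16.9, 19.7 and 17.7 in decompression. It was 22.7, 31.7 and 37.1 in denervation and 37.2, 15.9 and 14.0 in entrapment, so that every injury array lay below the sham array. Decompression minus sham was −1.76 (SE 0.54, 3.40-fold lower, adjusted p = 0.0361, and 0.0507 to 0.0775 without any decompression array, denervation replicate 2 or entrapment replicate 2), entrapment minus sham −1.60 (SE 0.54, adjusted p = 0.0543) and denervation minus sham −1.04 (SE 0.54, adjusted p = 0.188).

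miR-100 fell from 185 in sham to 97.4, 84.7 and 96.6 in decompression. It was 115, 110.5 and 96.2 in denervation and 135, 97.5 and 98.9 in entrapment, and its 3 injury groups lay close together. Decompression was 2.00-fold lower than sham (SE 0.33 on the log2 scale, adjusted p = 0.0484), and the call was lost without any 1 of 7 of the 9 injury arrays (adjusted p 0.0570 to 0.0958). miR-99a was 1315 in sham, 675, 634 and 577 in denervation, 1248, 724 and 931 in entrapment and 975, 591 and 932 in decompression. Denervation was its lowest group, with a difference from sham of −1.07 (SE 0.42, adjusted p = 0.0982), and no contrast of miR-99a was called in soleus.

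The calls against sham in soleus depended on the scaling. The 75th percentile signal differed 6.2-fold between the soleus arrays, from 409 on the sham array to 2539 on denervation replicate 2. Without scaling, decompression minus sham was 0.35 for miR-100 and −0.01 for miR-125b-5p, and with the percentile over all 348 miRNAs it was −0.98 for miR-99b (adjusted p = 0.179). With only 1 sham array, assumed in the fit to vary like the other groups, the sham level itself has no replicate check.

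The other strands in soleus showed the widest range of all members. miR-125a-3p was 138 in sham, 10.4, 74.3 and 27.8 in denervation, 7.70, 3.21 and 2.74 in entrapment and 2.64, 0.303 and 0.889 in decompression. It was detected on the sham array, on all 3 denervation arrays, on 1 entrapment array and on no decompression array. All 3 decompression signals lay under the 2.72 floor and were raised to it, so this group added no spread to the fit. limma called decompression lower than sham and than denervation, but the p-values depend on the floor and are not given. The size of the decompression differences depended on the floor too. The log2 difference from sham was −3.98 with 8 units added in place of the floor and −4.25 with the background subtracted, and that from denervation −2.04 and −2.02. Entrapment minus sham was −5.08 (SE 0.93, adjusted p = 0.00472) and entrapment minus denervation −2.77 (SE 0.66, adjusted p = 0.0280), the latter not called without denervation replicate 2 or entrapment replicate 2 or 3 (adjusted p 0.0571 to 0.101). The 3 denervation arrays differed 7.16-fold among themselves, and their difference from sham of −2.31 was not called (adjusted p = 0.0997) except without denervation replicate 2 (−3.02, adjusted p = 0.0249).

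miR-125b* in soleus was 9.83 in sham, 12.5, 37.7 and 11 in denervation, 5.05, 1.09 and 2.26 in entrapment and 2.33, 1.91 and 1.79 in decompression. After scaling the denervation arrays lay above all others. As deposited, denervation replicate 3 was 4.15 and sham 3.68, both below entrapment replicate 1 at 8.05. miR-125b* was detected on the sham array, on 2 denervation arrays (not replicate 3), on 1 entrapment array and on no decompression array. All 3 decompression signals and those of entrapment replicates 2 and 3 lay under the 2.72 floor and were raised to it. limma called decompression lower than denervation and not lower than sham. The size, the spread and the p-values under the floor depend on it and are not given. With 8 units added in place of the floor these differences were −1.38 and −0.83, and with the background subtracted −1.36 and −0.77. Entrapment was called lower than denervation too, but not without entrapment replicate 2 or 3. The size, the spread and the p-value of this difference are not given for the same reason. With the background subtracted, the differences of both other strands from denervation were not called (adjusted p 0.0750 to 0.123), while miR-125a-3p stayed below sham by −4.06 after entrapment and −4.25 after decompression (adjusted p 0.00932 and 0.00757).

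Of the 7 members tested in soleus, limma called 0 in denervation minus sham (15% of all miRNAs lower and 11% higher), 1 lower in entrapment minus sham (19.7% of all lower, 9.83% higher), 4 lower in decompression minus sham (22% and 9.83%), 2 lower in entrapment minus denervation (11.6% and 0%) and 3 lower in decompression minus denervation (12.7% and 1.16%). None was called higher, and 0 of the 173 miRNAs tested were called in decompression minus entrapment. The median difference in decompression minus sham was −1.36 over the members and −0.29 over all. By the rule of a change of at least 2-fold from sham on each array, without a test, 0, 1 and 4 members were lower in soleus after denervation, entrapment and decompression (18.5%, 27.2% and 27.2% of all, with 15.6%, 11% and 13.3% higher), and 0, 2 and 2 in the DRGs (0.913%, 11% and 13.7%, with 0.457%, 0% and 0% higher).

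**Figure D3:**
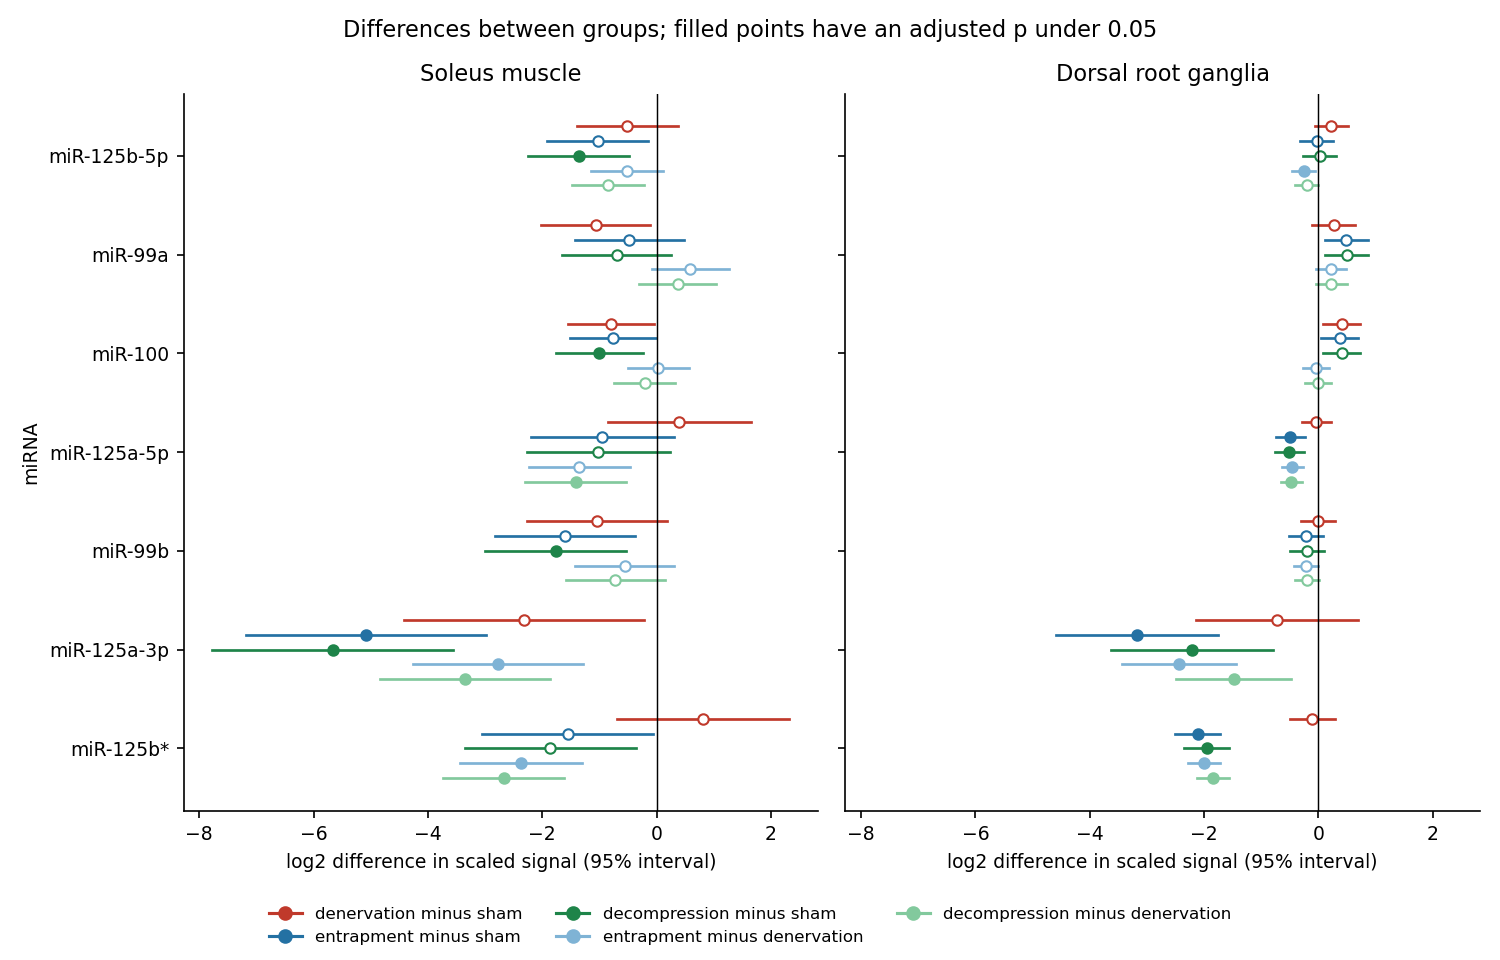
Log2 differences in scaled signal between groups with 95% intervals from limma for the 7 members tested, in soleus (left) and DRGs (right), with 1 colour per contrast. Filled points passed an adjusted p of 0.05. Intervals are wider in soleus, the 4 filled points of miR-125a-5p in the DRGs lie between −0.51 and −0.46, and the other strands miR-125a-3p and miR-125b* lie farthest from 0, at sizes that depend on the floor.

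Whether the change from sham differed between tissues was tested with limma's interaction term over all 20 arrays. Of the 7 members, 2 had a lower difference in soleus than in the DRGs for denervation (15% of all miRNAs lower, 8.55% higher), namely miR-100 and miR-99a. For entrapment it was 3 (18.8% and 8.55%), namely miR-100, miR-125b-5p and miR-99b, and for decompression 5 (18.8% and 8.97%), the same 3 with miR-99a and miR-125a-3p. For entrapment minus denervation, which uses no sham array, it was 0 (5.98% and 2.99%). Without scaling, 0 members were called in the 3 contrasts with sham.

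Because scaling moved the muscle results, ratios of 2 members on the same array were also compared between injury groups, as a description chosen after the values were seen. Such a ratio does not depend on the scaling and shows only unequal change. Of the 10 pairs of main strands, the ratio did not overlap between denervation and entrapment for 8 pairs in soleus and 9 in the DRGs, where 32.5% and 55.8% of all pairs of miRNAs detected on every array of the tissue did not overlap. Between denervation and decompression it was 7 pairs in soleus and 9 in the DRGs (34.4% and 55.7% of all). The 10 pairs share 5 miRNAs and are not independent.

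The pair of miR-99a and miR-125a-5p is given as the most extreme case, not a typical one. Among the pairs of main strands, its log2 ratio differed most from denervation after entrapment and after decompression in both tissues. In soleus it was 15.2 on the sham array, 4.86 to 7.05 in denervation, 15.9 to 28.4 in entrapment and 9.62 to 29.4 in decompression. In the DRGs it was 7.16 in sham, 8.54 to 9.11 in denervation, 13.3 to 14.9 in entrapment and 12.7 to 15.9 in decompression. On the log2 scale entrapment exceeded denervation by 1.94 in soleus and 0.68 in the DRGs, and by 1.82 and 0.62 with the background subtracted. The sham array lay just below the lowest entrapment array and within the range of decompression in soleus, and below all denervation arrays in the DRGs.

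**Figure D4:**
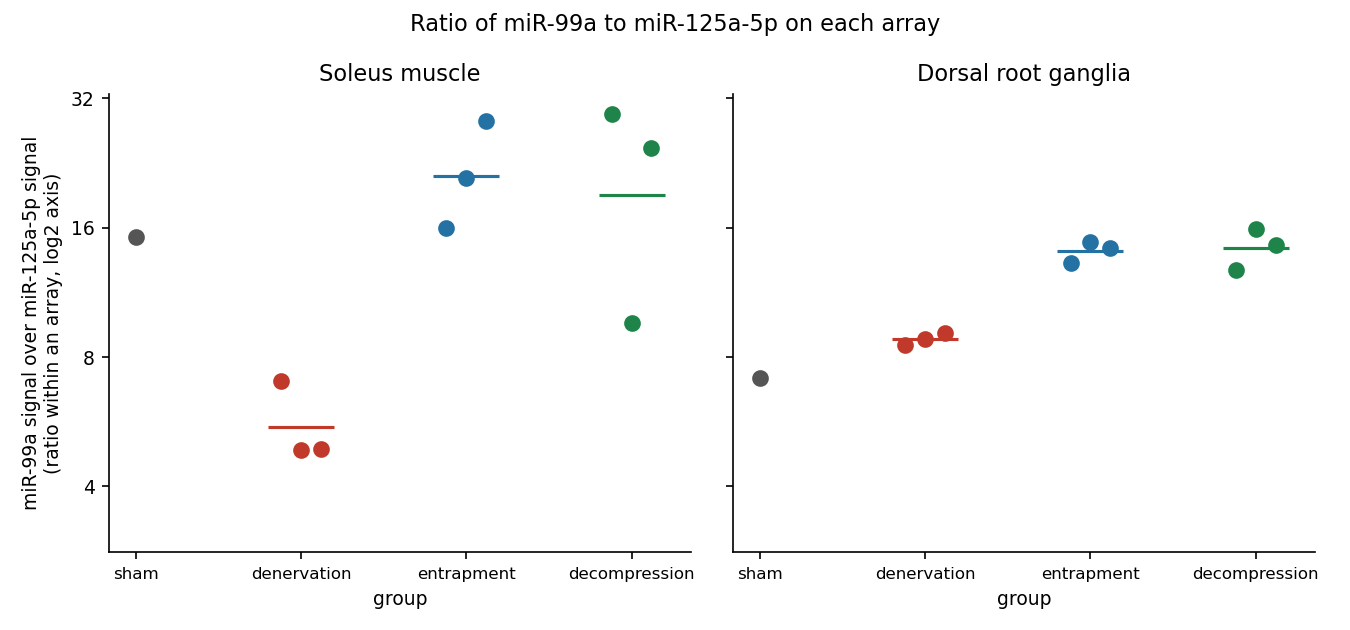
Ratio of the miR-99a signal to the miR-125a-5p signal on each array (log2 axis), by group, in soleus (left) and DRGs (right), with the geometric mean of each group of 3 as a line. Denervation arrays lie at 4.86 to 7.05 in soleus and 8.54 to 9.11 in the DRGs, below every entrapment and decompression array of the same tissue.

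The closest pair by gene position, miR-99b and miR-125a-5p, did not keep 1 ratio across groups. In soleus miR-99b over miR-125a-5p was 0.712 in sham, 0.237 to 0.314 in denervation, 0.427 to 0.475 in entrapment and 0.321 to 0.510 in decompression. In the DRGs it was 0.429 in sham, 0.436 to 0.441 in denervation, 0.498 to 0.533 in entrapment and 0.511 to 0.555 in decompression. By contrast, miR-99b over miR-125b-5p, which lie on different chromosomes, overlapped between denervation and both other injury groups in both tissues, although with the background subtracted it did not overlap in the DRGs.

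None of the 12 tests of a strand ratio between injury groups passed (exact permutation of 3 arrays against 3, smallest possible p = 0.1, adjusted p 0.14 to 0.70). In the DRGs the log2 ratio of miR-125a-5p to miR-125a-3p was 3.25 to 3.54 in denervation and 3.52 to 5.42 in decompression, which overlapped (exact p = 0.2). In soleus it was −0.68 on the sham array, 0.81 to 3.21 in denervation and 3.35 to 3.53 in entrapment. Where the other strand was under the floor on every array of a group, as in soleus decompression for miR-125a-3p and for miR-125b*, the ratio follows the main strand alone and is not given.

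The cluster partners and related strands on the array were let-7a, let-7c, let-7e, miR-99a*, miR-99b* and miR-351. The let-7 miRNAs, regulators of cell differentiation, were tested in each tissue together with miR-99a*. Of these 4, 1 was called lower than sham in soleus after each injury (15%, 19.7% and 22% of all miRNAs lower after denervation, entrapment and decompression). All 4 were called lower in soleus than in the DRGs (62.4% of all), and let-7c and miR-99a* had a lower difference from sham in soleus than in the DRGs for all 3 injuries (15%, 18.8% and 18.8% of all). miR-99a*, the other strand of miR-99a, was 55.0 in sham, 18.3, 17.3 and 16.6 in denervation, 26.8, 18.8 and 24.7 in entrapment and 29.9, 24.4 and 23.9 in decompression. It was lower than sham after denervation by −1.66 (SE 0.34), entrapment by −1.25 and decompression by −1.09 (adjusted p 0.00820, 0.0252 and 0.0371). After scaling, the lowest group of miR-99a* was denervation, as for miR-99a. None of the 4 was called in the DRGs between groups.

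The nearest patterns over the 10 arrays of a tissue were listed by the root mean square difference of centred log2 signals, as a description. Among non-members, miR-99a in soleus was nearest to let-7a (0.28), miR-99a* (0.29) and let-7c (0.31), where the median over non-members was 0.81. miR-100 was nearest to let-7a (0.17), miR-20a and miR-181a, and miR-125b-5p to miR-20a, miR-347 and miR-181b. Among non-members, miR-99b was nearest to miR-199a-5p (0.35), miR-214 and miR-140*, and miR-125a-5p to miR-221 (0.43), miR-434 and miR-664. In soleus the member miR-125b-5p was nearer to miR-99b (0.34), and the member miR-100 to miR-125b-5p (0.29), than any non-member. For the other main strands in soleus, and for every main strand in the DRGs, a non-member was nearest. In the DRGs, miR-125a-5p was nearest to miR-186 (0.08), miR-204* and miR-181a*, miR-99b to miR-30e (0.04), miR-376b-3p and miR-411, and miR-99a to miR-497 (0.06), miR-10a-5p and miR-30a*. miR-100 was nearest to miR-27b (0.06), miR-29c and let-7c, and miR-125b-5p to miR-431 (0.07), miR-26a and miR-140*. The arrays share their scaling and the set they belong to.

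Markers of other cell types also moved between arrays. The leukocyte list (4 of its 5 miRNAs on the array, all 4 detected in each group) summed to 497 to 799 on the soleus sham and denervation arrays and 329 to 473 on the entrapment and decompression arrays. In soleus the 3 fibroblast and mesenchyme miRNAs, of which miR-199a-5p and miR-214 were the non-members nearest to miR-99b, summed to 658 in sham, 731 to 1078 in denervation, 556 to 1088 in entrapment and 441 to 601 in decompression. The glial list in the DRGs summed to 7978.5 in sham and 9813 to 12452 in the injury groups. The soleus sham array stood apart in the endothelium list, whose 2 miRNAs summed to 382 there, with miR-126* not detected, and to 1101 to 1802 on the injury arrays. The 5 muscle miRNAs summed to 207581 in soleus sham, 101332 to 360891 in denervation, 59380 to 120942 in entrapment and 104751 to 107977 in decompression. The part of these lists in the members' levels was not tested.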

How the data were processed

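RNA of 10 soleus and 10 DRG samples was hybridised to single-colour Agilent rat miRNA arrays. The authors deposited 1 total gene signal per miRNA and array, a background-subtracted intensity from Feature Extraction 9.5.3 without normalization between arrays, and Agilent's detection call. A second deposited file holds signal values that for the members are the intensities over 1 constant per array (within 1%; on 8 soleus arrays 1 to 4 other miRNAs deviated). It served as an alternative. The LOWESS filtering named in the Methods was not repeated here. The number of arrays limits the precision, and no slide or scan is named in the files used here.

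Signals were divided by the array's 75th percentile, taken over the 108 miRNAs detected on all soleus arrays, over all 348 miRNAs for the DRGs, and over the 102 detected on all 20 arrays for both tissues. The soleus set is narrower because a median of 148.5 miRNAs was detected there. The floor (2.72, 2.28 and 2.32 for soleus, DRGs and both), to which lower signals were raised, was the median over arrays of the lowest detected signal. Control features were dropped, as were 2 of 350 miRNAs whose names differed between files.

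miRNAs detected on at least 3 arrays (173, 219 and 234) were tested with limma 3.58.1 in R 4.3.3 (lmFit and eBayes on log2 signals, two-sided, Benjamini-Hochberg adjustment over all tested, called under 0.05). The spread of sham, with 1 array, was taken from the injury groups. Strand ratios were compared by exact permutation. In simulated data with 40 miRNAs changed by 2 on the log2 scale, 31 were called in soleus entrapment minus denervation (3 false), 23 in soleus entrapment minus sham (0 false), 40 in DRG entrapment minus denervation (3 false) and 39 in DRG entrapment minus sham (0 false). The simulated noise was normal and independent, with no floor, scaling step or background difference between array sets. Smaller changes and signals at the floor were therefore not covered.

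All members are named, with let-7a, let-7c, let-7e, miR-99a*, miR-99b*, miR-351 and the 3 non-members nearest to each main strand. Members and lists were chosen with earlier results of these data known. Alternatives changed the scaling, the filter, the floor (a pseudocount of 8), the values, the samples fitted, the replicate block and each injury array.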

Additional observations from a re-analysis of the deposited data

Results flagged for a closer look

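In 10 cases the difference from sham was not the same in soleus and in the DRGs, by limma's interaction term over all 20 arrays with Benjamini-Hochberg adjustment, and each was lower in soleus. For denervation, 2 members were called (15% of the 234 miRNAs were lower and 8.55% higher): miR-100 differed by −1.20 (adjusted p = 0.00723) and miR-99a by −1.33 (adjusted p = 0.0365). For entrapment, 3 were called (18.8% of all lower and 8.55% higher): miR-100 by −1.33 (adjusted p = 0.00371), miR-125b-5p by −1.19 (adjusted p = 0.0299) and miR-99b by −1.58 (adjusted p = 0.0496). For decompression, 5 were called (18.8% of all lower and 8.97% higher): miR-100 by −1.56 (adjusted p = 0.00099), miR-125b-5p by −1.54 (adjusted p = 0.00631), miR-99a by −1.35 (adjusted p = 0.0301), miR-99b by −1.72 (adjusted p = 0.0351) and miR-125a-3p by −3.55 (adjusted p = 0.0438). All 10 use the same pair of sham arrays, 1 per tissue, and none was called under every alternative. In entrapment minus denervation, which uses no sham array, 0 of the 7 members differed between tissues (5.98% of all were lower and 2.99% higher), except that leaving out soleus entrapment replicate 1 gave 2, miR-125a-5p and miR-99b. No group had enough arrays for a check of single outlying arrays.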

How the results depend on the processing

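Of the 13 member calls between DRG groups, 6 were kept under every alternative: miR-125a-5p and miR-125b* in both contrasts with denervation and miR-125a-3p in entrapment minus sham and minus denervation, where the other strands were at or near the floor. None of the 10 soleus calls was kept under every alternative, and 4 were kept whichever array was left out. The causes of the changes below were not tested. Weak signals near the floor and the 1 sham array per tissue limit all of them.

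In soleus denervation minus sham, 0 members were called, against 2 with quantile scaling and 1 with the background subtracted. In entrapment minus sham 1 was called, against 2 with the pseudocount, 0 with the processed values, 2 with an intensity trend and 2 without denervation replicates 1 and 2. In decompression minus sham 4 were called, against 1 with the other percentile set, 1 without scaling, 2 with quantile scaling and 0 with the processed values. In entrapment minus denervation 2 were called, against 0 without scaling, 1 with quantile scaling, 1 over miRNAs detected on all arrays, 0 without a filter, 0 with the processed values, 0 with the background subtracted and 1 when only both groups were fitted. In decompression minus denervation 3 were called, against 1 without scaling, 0 with quantile scaling, 1 over miRNAs detected on all arrays, 1 without a filter, 0 with the processed values and 0 with the background subtracted.

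In the DRGs, denervation minus sham had 0 calls, against 1 with quantile scaling. Entrapment minus sham had 3, against 5 with the other percentile set and 1 over miRNAs detected on all arrays. Decompression minus sham had 3, against 5 with the other percentile set, 1 over miRNAs detected on all arrays and 1 when only both groups were fitted. Entrapment minus denervation had 4, against 2 over miRNAs detected on all arrays. Decompression minus denervation had 3, against 5 without scaling, 1 over miRNAs detected on all arrays and 5 with the processed values. The DRG decompression columns of the processed values matched the entrapment scanner files. Over miRNAs detected on all arrays the other strands were not tested. Between tissues 5 were called, against 3 with the processed values.

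Whether the replicate numbers pair the samples was not settled. In the DRGs, deviations of same-numbered arrays correlated at −0.122 to 0.481 (median 0.0977) and those of different-numbered arrays at −0.501 to 0.325 (median −0.0697). In soleus it was −0.469 to 0.206 (median 0.0221) and −0.474 to 0.549 (median 0.0484). With the replicate block, 1 member was called in soleus decompression minus sham, 1 in soleus entrapment minus denervation and 3 in the decompression interaction, and the other counts stayed within 1.5 times.

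For the difference between tissues in the change from sham, denervation had 2 calls, against 0 with the other percentile set, 0 without scaling and 0 with the processed values. Entrapment had 3, against 0 with the other percentile set, 0 without scaling, 1 with quantile scaling, 0 with the processed values and 5 with the background subtracted. Decompression had 5, against 0 with the other percentile set, 0 without scaling, 3 with median scaling, 2 with quantile scaling and 0 with the processed values.

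Some directions turned. Without scaling, soleus decompression minus sham was 0.35 for miR-100. With quantile scaling, DRG decompression minus sham was −0.26 for miR-125b-5p and soleus minus DRGs 2.15 for miR-125b*. The tissue difference in denervation was, without scaling and with the processed values, 0.19 and 0.62 for miR-100 and 0.059 and 0.50 for miR-99a. In entrapment it was 0.84 and 0.97 for miR-100, 0.98 and 1.09 for miR-125b-5p (0.14 with quantile scaling) and 0.60 and 0.74 for miR-99b. In decompression without scaling it was 0.29 for miR-100, 0.31 for miR-125b-5p, 0.51 for miR-99a and 0.13 for miR-99b.

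By the 2-fold rule, soleus denervation had 0 members, against 1 with median scaling, 1 with quantile scaling, 2 with the processed values, 4 at 1.5-fold and 3 by the mean. Entrapment had 1, against 3 with the processed values, 3 at 1.5-fold and 4 by the mean. Decompression had 4, against 2 with the other percentile set, 1 without scaling, 2 with quantile scaling and 1 with the processed values. With quantile scaling the DRGs had 1 after entrapment and 0 after decompression.

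Leaving out 1 array at a time gave 0 to 1, 1 to 3, 1 to 5, 0 to 3, 2 to 4 and 0 to 0 calls in soleus for denervation, entrapment and decompression minus sham, entrapment and decompression minus denervation, and decompression minus entrapment. In the same order the DRGs gave 0 to 0, 3 to 5, 2 to 4, 3 to 5, 2 to 3 and 0 to 0. Between tissues it gave 5 to 5, and for the tissue differences 1 to 3 in denervation, 1 to 4 in entrapment, 2 to 5 in decompression and 0 to 2 in entrapment minus denervation.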
